A study of Mus musculus with 4 samples.

Results

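The axon guidance families are ligands and receptors, first described in the nervous system, that also set cell position, adhesion and growth in epithelia. They were read here in sorted hair follicle stem cells of mouse back skin. The set comprised every gene row whose symbol named a semaphorin, plexin, neuropilin, ephrin, Eph receptor, Slit, Robo or netrin, 65 of the 24084 gene rows counted. Of these, 64 were family members and 1 was Plxna4os1, an antisense RNA at the plexin locus, which had 0 counts. The rule used symbols only and no measured value, but the families were chosen with earlier results of these data known. The families held 20 semaphorins, 9 plexins, 2 neuropilins, 5 A-type and 3 B-type ephrins, 9 EphA and 5 EphB receptors, 3 Slits, 4 Robos and 4 netrins.

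The series held 4 RNA-sequencing libraries of hair follicle stem cells, the epithelial cells that regrow the follicle, from C57BL/6 mice 7 to 10 weeks of age. Of these, 2 came from Foxp3-DTR mice (replicates C and D), labelled as depleted of regulatory T cells, and 2 from WT mice (replicates A and C), labelled as having these cells. In Foxp3-DTR mice the diphtheria toxin receptor is made in cells that express Foxp3, so that the toxin removes regulatory T cells. Both groups received diphtheria toxin at 15 ng/g into the peritoneum, and both were sampled 4 days after depilation of the back, which starts a new hair growth phase. The comparison addresses stem cell expression with and without regulatory T cells. The labels give no sorting gate and do not say whether a library was 1 animal or a pool, and the spread that p-values rest on here may be technical.

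Gene counts summed to between 13911765 and 15923154 per library. The bulge markers Cd34, Krt15, Lgr5, Sox9, Lhx2, Nfatc1, Tcf3 and Itga6 were present in every library, with the lowest value, Tcf3 in Foxp3-DTR D, at 115 CPM, which are read counts put on the same library size. Cd34 and Itga6 were higher in both Foxp3-DTR libraries than in both WT libraries, and Sox9, Lhx2, Nfatc1 and Tcf3 were lower. Lhx2 had 425 and 439 CPM in Foxp3-DTR C and D, against 789 and 804 CPM in WT A and C. Cd34 had 1709 and 1625 CPM, against 936 and 1216 CPM. The groups also did not overlap for 45.7% of all tested genes. None of the bulge markers passed the adjusted threshold used below. Foxp3 had 0 counts in all 4 libraries, so it gives no check of the depletion. The groups differed in sex-linked genes: 4 Y-linked genes summed to 319 and 260 CPM in Foxp3-DTR C and D and had 0 counts in WT, while Xist stood at 1.86 CPM and 0 counts in Foxp3-DTR C and D against 861 and 2482 CPM in WT A and C. In every comparison between the groups given here, group and sex cannot be told apart. This bears most directly on the X-linked members, which are Efnb1, Plxna3 and Plxnb3. The titles also carry the code DEP3 for both Foxp3-DTR libraries and DEP2 for both WT libraries, which cannot be told apart from group either. Krt10, a keratin of suprabasal epidermis, was high in 1 library of each group, at 458 and 3796 CPM in Foxp3-DTR C and D, against 4562 and 249 CPM in WT A and C.

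Semaphorins signal through plexins, with neuropilins as co-receptors for the secreted class. Ephrins sit on the cell surface and bind Eph receptor tyrosine kinases on the neighbouring cell, with signals passing into both cells. Slits are secreted ligands of Robo receptors, and netrins are laminin-related secreted proteins. In keratinocytes, ephrins and Eph receptors are known for roles in adhesion, differentiation and growth control.

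Of the 65 rows, 41 reached 1 CPM or more in each of the 4 libraries and are called expressed, 15 had counts but did not reach this level, and 9 had 0 counts in every library. The 41 were made up of 24 ligands and 17 receptors. All members together took 0.490% and 0.455% of gene counts in Foxp3-DTR C and D, and 0.432% and 0.538% in WT A and C. For comparing genes with each other, levels are given as TPM, which divides counts by exon length and scales each library to the same total. On this scale the median tested gene had a mean level of 29.6 TPM.

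The family with the largest summed ligand level was the A-type ephrins, which are held in the membrane by a lipid anchor. Their TPM summed to 1061 and 1066 in Foxp3-DTR C and D, and to 720 and 879 in WT A and C. Efna1 led all ligands, at 589 and 570 TPM in Foxp3-DTR C and D, against 267 and 370 TPM in WT A and C. Efna3, Efna4 and Efna5 followed with mean levels over 4 libraries of 187 ± 24.1, 162 ± 27.6 and 112 ± 17.1 TPM (SD, n = 4 libraries), and Efna2 was lowest at 21.4 ± 1.72 TPM. B-type ephrins cross the membrane and signal back into their own cell. Efnb2 stood at 231 ± 35.6 and Efnb1 at 168 ± 50.8 TPM, whereas Efnb3 reached only 2.91 ± 0.531 TPM.

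Among semaphorins the secreted class 3 proteins Sema3e and Sema3c were the most abundant, at 213 ± 80.2 and 118 ± 37.6 TPM. The membrane proteins Sema4a, Sema4b, Sema4c and Sema5a had mean levels of 81.2, 51.2, 35.4 and 33.0 TPM. Sema3f, Sema4g, Sema6c, Sema3d, Sema6a, Sema3b and Sema4d lay between 3.63 and 26.5 TPM. Sema3a, the founding class 3 repellent, had 1 and 1 counts in Foxp3-DTR C and D and 0 and 11 in WT A and C. Sema6d had 6 to 35 counts per library, and Sema4f, Sema6b and Sema7a had counts in 1 library each, at most 9. Sema3g and Sema5b had 0 counts in all libraries, which allows up to 0.213 CPM in any of them.

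Of the 3 Slits only Slit3 was expressed, at 9.27 ± 3.57 TPM, while Slit1 had 0 to 8 and Slit2 0 to 3 counts per library. Of the netrins, Ntn4, which binds basement membrane laminin, stood at 35.1 ± 14.5 TPM and Ntn3 at 0.962 to 2.99 TPM. Ntn1, the classical netrin, had 2 to 6 counts per library and Ntn5 had 0 in all 4.

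Among receptors the EphB family was highest. Ephb6, which lacks kinase activity, led all receptors at 508 and 440 TPM in Foxp3-DTR C and D, against 451 and 576 TPM in WT A and C, and its range did not overlap that of the next receptor. That receptor was Ephb4, which prefers ephrin-B2, at 242 ± 21.3 TPM. Ephb3 stood at 53.3 ± 9.33 and Ephb1 at 9.58 ± 9.92 TPM, and Ephb2 had 0 to 11 counts per library. Epha1, Epha4 and Epha2 had mean levels of 134 ± 13.0, 39.1 ± 17.3 and 34.1 ± 7.13 TPM. The other 6 EphA receptors had between 0 and 5 counts in any library.

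Plexins were more abundant than neuropilins, with Plxnb1 at 204 ± 63.2, Plxnb2 at 128 ± 13.4, Plxna1 at 72.3 ± 21.1, Plxna2 at 31.6 ± 11.2 and Plxna3 at 18.5 ± 5.34 TPM. The receptors used by class 3 ligands outside the A plexins were low. Plxnd1, which binds Sema3e without a neuropilin, had 1.53 and 1.20 TPM in Foxp3-DTR C and D and 0.745 and 0.930 TPM in WT A and C. Plxna4 and Plxnc1 did not reach 1 CPM in every library, and Plxnb3 had 0 counts. The neuropilins Nrp1 and Nrp2 averaged 2.18 and 2.05 TPM. Robo2 stood at 15.2 ± 3.67 TPM and Robo1 at 2.26 ± 1.16 TPM, and Robo3 had 1 count in all. Robo4, the endothelial Robo, had 0 counts, as did 4 of the 6 endothelial markers listed, Cdh5, Emcn, Kdr and Cldn5.

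In the order of mean levels most neighbours were not separated by their ranges over libraries. The exceptions were Sema4a above Sema4b among ligands, and Ephb6 above Ephb4 and Plxnb2 above Plxna1 among receptors. The strand setting of the counter is not given in the sources used here. Exons overlapping a gene on the opposite strand made up 14.1% of those of Efna3, 10.5% of Efna4, 10.7% of Plxna1, 7.27% of Sema4c and 6.01% of Epha1, so part of those counts is uncertain.

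**Figure D1:**
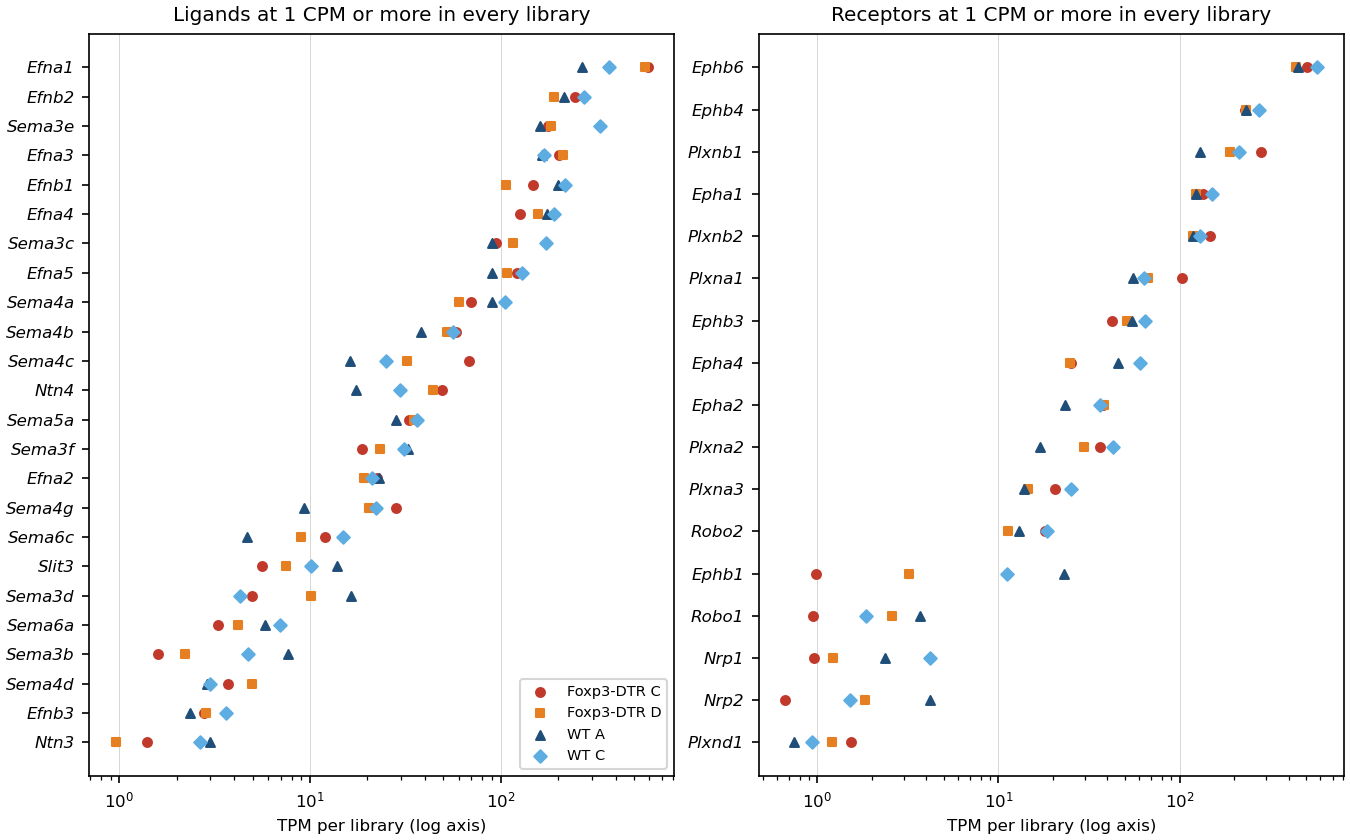
Level of each expressed ligand (left) and receptor (right) in TPM on a log axis, 1 point per library, ordered by the mean over 4 libraries. Efna1 and Ephb6 head the panels, with means of 449 and 494 TPM, and Plxnd1 closes the receptors at 1.10 TPM.

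No guidance gene passed the threshold between Foxp3-DTR and WT. Each gene was tested by quasi-likelihood in edgeR, with p-values adjusted by Benjamini-Hochberg over 12920 genes and a threshold of 0.05. Of 45 members tested, 0 were higher and 0 lower, against 0.82% of all tested genes called higher and 0.426% called lower. At an unadjusted p under 0.05 there were 11 members, 5 higher and 6 lower, which is 24.4% of the 45. Among all tested genes the share was 14.6%, with 6.76% higher and 7.89% lower. The median log2 fold change was -0.04 over members and -0.01 over all tested genes. DESeq2, an alternative count test, called 5 members, Efna1, Ntn4 and Sema4c higher and Epha4 and Ephb1 lower, of 46 with an adjusted p, where it called 3.61% of all genes higher and 3.79% lower. Limma-voom called 0 of 45, where it called 0.542% of all genes higher and 0.178% lower. With no filter on low counts, Efna1 was called higher and Epha4 lower of 56, beside 1.77% and 1.61% of all genes. Leaving out 1 library leaves its group with a lone library, which is assumed to vary like the others. Without WT A, Epha4 was called lower (background 0.993% higher, 0.316% lower), and without WT C, Efna1 was called higher (1.43% higher, 1.2% lower). Without Foxp3-DTR D, Sema4c was called higher and Ephb1 lower (1.52% higher, 1.64% lower). Without Foxp3-DTR C no member was called (0.497% higher, 0.105% lower).

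The levels of the 2 libraries of a group lay wholly above or below those of the other group for 25 of 45 members, 12 with Foxp3-DTR above and 13 with Foxp3-DTR below. This is beside 45.7% of all tested genes, 22% above and 23.7% below. Plexin fold changes were positive for 7 of 8 tested members, all EphB and ephrin-B fold changes were negative, and semaphorins were divided into 7 positive and 7 negative. Over all tested genes 6274 were positive and 6646 negative. These signs are a description without a test. Several lay near 0, with Efnb3 at -0.02 ± 0.66, Ephb6 at -0.06 ± 0.19 and Ephb4 at -0.07 ± 0.17. When 1 library was left out, Plxna2 ran from -0.24 to 0.94, Plxna4 from -0.36 to 2.33 and Plxnc1 from -0.71 to 7.10. Plxna1, Plxnb1, Plxnb2 and Plxnd1 stayed positive. Family medians ran from -1.33 for neuropilins to 0.47 for plexins.

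**Figure D2:**
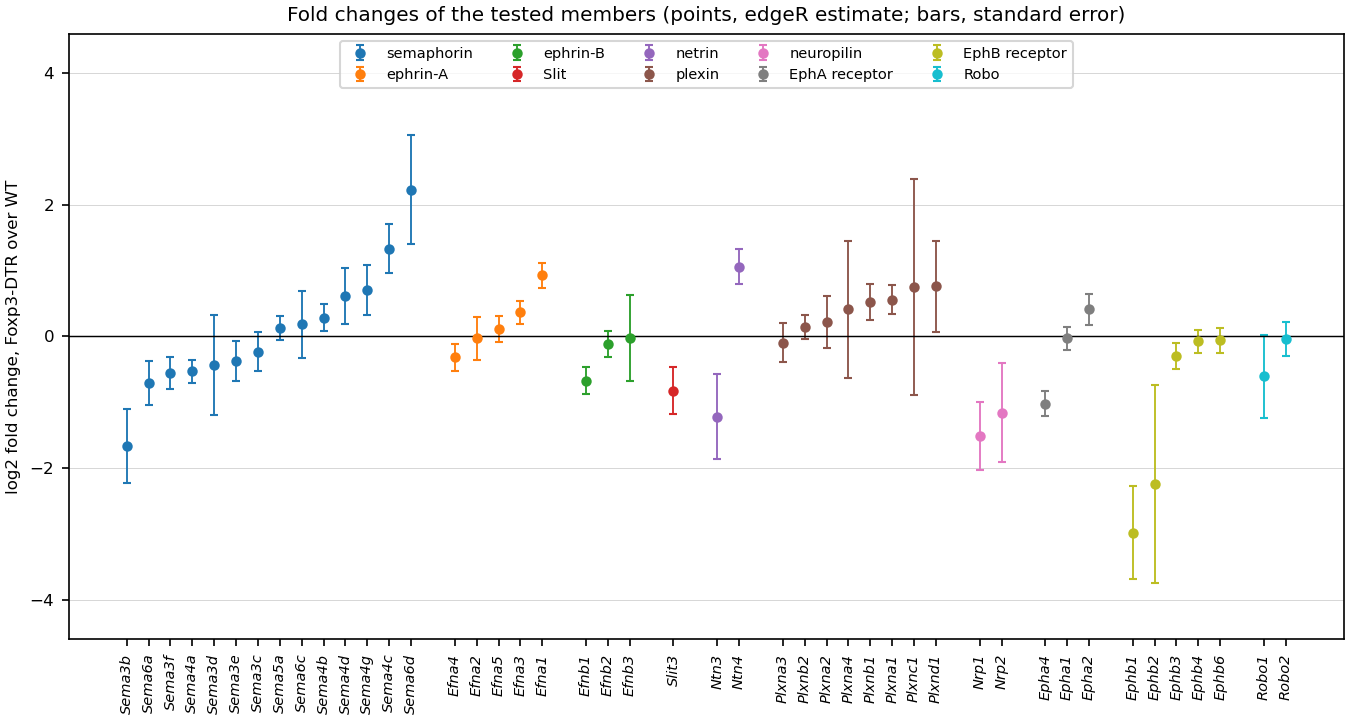
Log2 fold change of Foxp3-DTR over WT for the 45 tested members by family, with the edgeR estimate as a point and its standard error as a bar. Values run from -2.98 for Ephb1 to 2.23 for Sema6d, and none passed the adjusted threshold.

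Efna1, a ligand of EphA2, had the smallest p among members with higher values in Foxp3-DTR. It stood at 281 and 286 CPM in Foxp3-DTR C and D, against 133 and 166 CPM in WT A and C. The groups did not overlap and the Foxp3-DTR libraries lay close together. The log2 fold change was 0.93 ± 0.19 (SE), and edgeR gave an adjusted p of 0.0771. It passed without WT C (edgeR adjusted p = 0.0458), which raised the log2 fold change to 1.10, with no filter on low counts (0.0311) and in DESeq2 (0.000328).

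Efna1, Efna3 and Efna4 are neighbours on chromosome 3 of GRCm38, all on the minus strand, at 89271733 to 89281142, 89313899 to 89322965 and 89333390 to 89338028. Efna3 stood at 129 and 142 CPM in Foxp3-DTR C and D, against 109 and 101 CPM in WT A and C, with a log2 fold change of 0.37 ± 0.17. Efna4 stood at 52.4 and 68.3 CPM in Foxp3-DTR C and D, against 76.3 and 74.0 CPM in WT A and C, with -0.32 ± 0.20. Neither passed (edgeR adjusted p = 0.412 and 0.570). The receptors EphA1 and EphA2 did not pass either. Epha1 had 139 and 133 CPM in Foxp3-DTR C and D beside 132 and 145 CPM in WT A and C, and Epha2 had 46.4 and 49.0 CPM beside 29.8 and 41.8 CPM.

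Epha4, a receptor that binds both ephrin classes, had the smallest p of all members. It lies on chromosome 1 of GRCm38 at 77367185 to 77515088. It stood at 53.1 and 55.1 CPM in Foxp3-DTR C and D, against 99.9 and 119 CPM in WT A and C, so that both Foxp3-DTR libraries were well below both WT libraries. The log2 fold change was -1.02 ± 0.18, and edgeR gave an adjusted p of 0.0577. It passed without WT A (edgeR adjusted p = 0.0446), with no filter on low counts (0.0221) and in DESeq2 (0.000476), and the log2 fold change stayed between -1.13 and -0.88 when any single library was left out.

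The bases before the transcript starts of Efna1 and Epha4 are shown because these had the smallest p in each direction. Both are the 250 bases ahead of a start shared by RefSeq and GENCODE, from RefSeq's GRCm38.p6, minus strand, 5′ to 3′. Capitals mark matches to the GC box GGGCGG and the CCAAT box CCAAT on either strand. The windows are chr3:89279646-89279895 for Efna1 and chr1:77515089-77515338 for Epha4. The Efna1 window lies inside the annotated span of the gene, 89271733 to 89281142, so its start is not the outermost one. The Epha4 window lies directly outside the span of its gene.
Efna1: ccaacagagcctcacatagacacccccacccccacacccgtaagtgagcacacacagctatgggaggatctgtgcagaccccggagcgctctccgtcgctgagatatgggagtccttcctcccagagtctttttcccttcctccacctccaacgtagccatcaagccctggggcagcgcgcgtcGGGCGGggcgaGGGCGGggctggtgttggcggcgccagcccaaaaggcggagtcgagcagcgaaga
Epha4: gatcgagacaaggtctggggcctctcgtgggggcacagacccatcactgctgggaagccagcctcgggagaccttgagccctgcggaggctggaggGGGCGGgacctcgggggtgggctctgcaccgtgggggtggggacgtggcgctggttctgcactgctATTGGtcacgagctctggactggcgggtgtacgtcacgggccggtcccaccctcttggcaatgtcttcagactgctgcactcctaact
The windows were 64.4% and 66% G or C, with 18 and 14 CG dinucleotides in Efna1 and Epha4. RefSeq promoters were matched for 56 of the 65 symbols, in 72 windows. A GC box was in 70.8% of these windows, in 58.0% of 12403 windows of tested genes and in 32.7% of all 32851 windows. A CCAAT box was in 27.8%, 35.2% and 33.9% of the same windows. These matches describe letters and not bound sites.

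Ephb1, a receptor for B-type ephrins, had the largest negative fold change of the members tested. It stood at 1.79 and 6.16 CPM in Foxp3-DTR C and D, against 43.6 and 19.2 CPM in WT A and C. All Foxp3-DTR values were below all WT values, but the libraries within each group differed widely, 2.91-fold between Foxp3-DTR D and C and 2.24-fold between WT A and C on the CPM + 0.5 scale. The log2 fold change was -2.98 ± 0.71, and edgeR gave an adjusted p of 0.124. It passed without Foxp3-DTR D (edgeR adjusted p = 0.0100, log2 fold change -4.12). Without WT A the log2 fold change was smaller, at -2.25 (edgeR adjusted p = 0.250), and without Foxp3-DTR C, at -2.34 (edgeR adjusted p = 0.181). Its levels were higher in the Krt10-high library of each group, WT A and Foxp3-DTR D, and the part of that in the result was not tested.

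Efnb1, a B-type ephrin on the X chromosome, stood at 133 and 100 CPM in Foxp3-DTR C and D, against 188 and 184 CPM in WT A and C. The Foxp3-DTR libraries were below WT but differed from each other by more than the WT libraries did. The log2 fold change was -0.67 ± 0.20, and edgeR gave an adjusted p of 0.177. The difference in sex-linked genes between the groups cannot be told apart from it. The autosomal Efnb2 had 437 and 357 CPM in Foxp3-DTR C and D, against 402 and 457 CPM in WT A and C, with overlapping groups. The most abundant EphB receptors overlapped too. Ephb6 had log2 fold changes of -0.06 ± 0.19 and Ephb4 of -0.07 ± 0.17.

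Ntn4 stood at 48.1 and 45.3 CPM in Foxp3-DTR C and D, against 17.8 and 26.9 CPM in WT A and C. Both Foxp3-DTR libraries were above both WT libraries. The log2 fold change was 1.06 ± 0.27, and edgeR gave an adjusted p of 0.118, and the DESeq2 adjusted p was 0.0157. Ntn3 stood at 1.86 and 1.35 CPM in Foxp3-DTR C and D, against 4.15 and 3.32 CPM in WT A and C. Its log2 fold change of -1.22 ± 0.65 did not pass.

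Sema4c, a membrane semaphorin that binds plexin-B2, stood at 81.5 and 40.5 CPM in Foxp3-DTR C and D, against 20.3 and 28.0 CPM in WT A and C. The groups did not overlap, yet the Foxp3-DTR libraries lay far apart. The log2 fold change was 1.34 ± 0.37, and edgeR gave an adjusted p of 0.155, and it ran from 0.75 without Foxp3-DTR C to 1.76 without Foxp3-DTR D, where it passed (edgeR adjusted p = 0.0155). Sema6d was near the detection limit, with 35 and 33 counts in Foxp3-DTR C and D and 6 and 9 counts in WT A and C. Its log2 fold change was 2.23 ± 0.83, and edgeR gave an adjusted p of 0.279.

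Sema4a stood at 98.5 and 89.2 CPM in Foxp3-DTR C and D, against 132 and 139 CPM in WT A and C. The groups did not overlap, and the difference was small, at -0.53 ± 0.17 on the log2 scale (edgeR adjusted p = 0.216). Sema3e, the most abundant semaphorin, stood at 426 and 467 CPM in Foxp3-DTR C and D, against 403 and 754 CPM in WT A and C. WT A and WT C differed widely and the groups overlapped, with -0.37 ± 0.31 on the log2 scale (edgeR adjusted p = 0.675). Sema3c also had its highest value in WT C, at 176 and 228 CPM in Foxp3-DTR C and D, against 174 and 299 CPM in WT A and C.

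**Figure D3:**
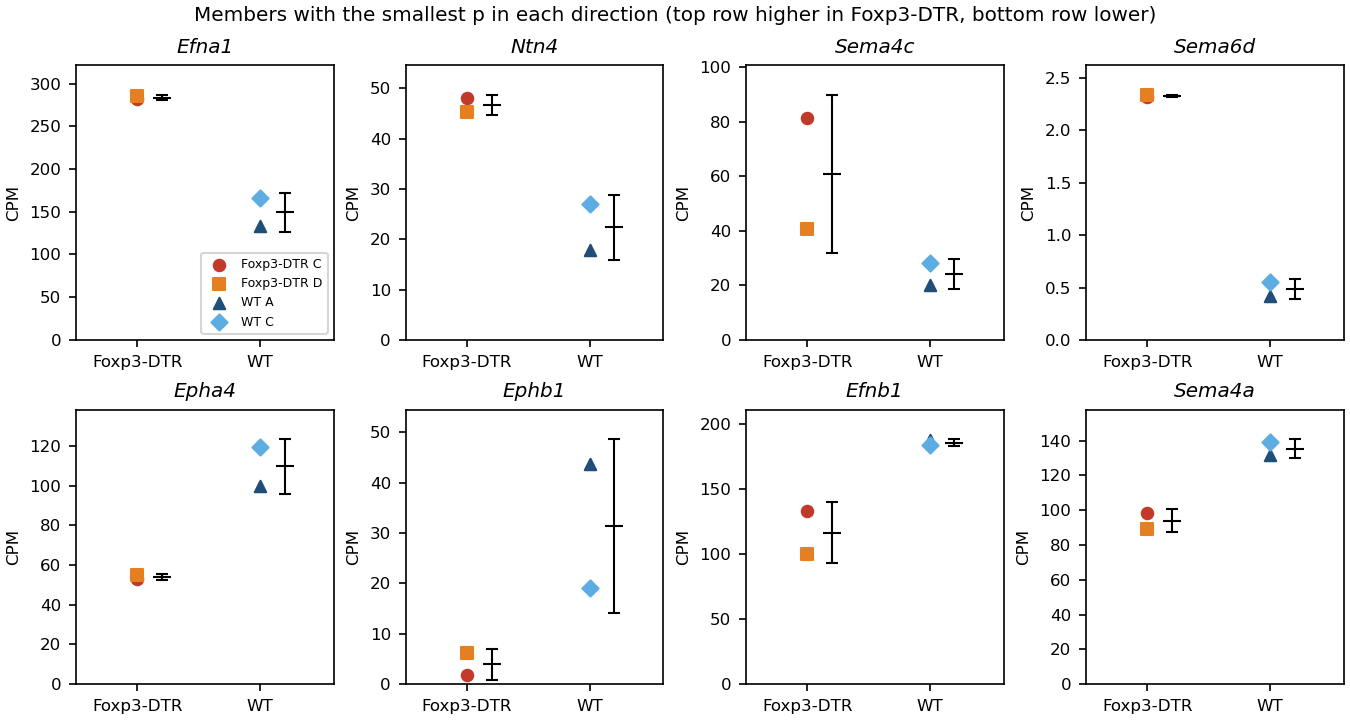
CPM per library of the 4 members with the smallest p among higher values (top row) and lower values (bottom row), Foxp3-DTR left and WT right, with the group mean and SD beside the points (n = 2 each). Groups do not overlap in any panel, which were chosen by p, and did not overlap for 45.7% of all tested genes. Ephb1 and Sema4c differ widely within a group.

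Plexins did not pass. Plxna1 stood at 243 and 166 CPM in Foxp3-DTR C and D, against 136 and 141 CPM in WT A and C, which is 0.56 ± 0.23 on the log2 scale (edgeR adjusted p = 0.324). Plxnb1, the receptor of Sema4d, stood at 708 and 497 CPM in Foxp3-DTR C and D, against 339 and 501 CPM in WT A and C, with overlapping groups. Plxnb2 had a log2 fold change of 0.14 ± 0.18.

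Low-abundance members with lower values in Foxp3-DTR included Slit3, Sema3b and Nrp1. Slit3 stood at 8.89 and 12.5 CPM in Foxp3-DTR C and D, against 22.9 and 15.0 CPM in WT A and C, or -0.83 ± 0.35 on the log2 scale (edgeR adjusted p = 0.359). Nrp1 stood at 2.45 and 3.26 CPM in Foxp3-DTR C and D, against 6.27 and 10.0 CPM in WT A and C, and Sema3b at 1.99 and 2.91 CPM beside 10.0 and 5.54 CPM. Neither passed (edgeR adjusted p = 0.235 and 0.230), and Nrp1 and Sema3b are named after their values were seen. In bulk libraries, fewer cells of a type and less RNA per cell cannot be told apart. The 6 fibroblast markers listed summed to 27.9 and 31.8 CPM in Foxp3-DTR C and D and to 40.0 and 53.4 CPM in WT A and C. Of these Lum had 0 counts and Col3a1 had 1 count in all, and Col1a1 and Col1a2 gave most of the sum. Pdgfra and Dcn went the other way. Pdgfra had 52 and 34 counts in Foxp3-DTR C and D, against 13 and 26 counts in WT A and C, and Dcn had 16 and 9 counts beside 8 and 6 counts. The 6 endothelial markers summed to 2.72 and 1.91 CPM in Foxp3-DTR C and D and to 4.01 and 4.74 CPM in WT A and C, with 4 of the 6 at 0 counts. Tek had 16 and 21 counts in Foxp3-DTR C and D, against 44 and 77 counts in WT A and C. Pecam1, the other marker detected, had 25 and 6 counts in Foxp3-DTR C and D, against 13 and 0 counts in WT A and C. The part of these cells in the values of Slit3, Nrp1 and Sema3b was not tested.

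A few members differed the same way between the replicates of both groups. Of 45 tested members, 5 were at least 1.5-fold higher both in WT A than in WT C and in Foxp3-DTR D than in Foxp3-DTR C, on the CPM + 0.5 scale, beside 4.98% of all tested genes. These were Sema3d, Nrp2, Robo1, Ephb1 and Plxnc1, which were chosen for this pattern. Plxnc1 was near the detection limit, with 6 and 26 counts in Foxp3-DTR C and D and 19 and 0 counts in WT A and C. Sema3d stood at 11.1 and 23.7 CPM in Foxp3-DTR C and D, against 38.2 and 9.04 CPM in WT A and C. Nrp2 stood at 2.06 and 5.95 CPM in Foxp3-DTR C and D, against 13.5 and 4.37 CPM in WT A and C, and Robo1 at 4.05 and 11.7 CPM beside 16.5 and 7.44 CPM. The libraries with the higher values were those with high Krt10. The 6 suprabasal markers summed to 1173 and 6800 CPM in Foxp3-DTR C and D and to 8016 and 932 CPM in WT A and C. The 5 sebaceous gland markers summed to 383 and 490 CPM in Foxp3-DTR C and D. In WT A and C the sums were 1881 and 348 CPM. All 5 were higher in WT A than in WT C. In Foxp3-DTR, Scd1, Mgst1 and Awat1 were higher in D than in C, and Fasn and Pparg were lower. Fasn had 223 and 196 CPM in Foxp3-DTR C and D, and Pparg had 22 and 1 counts. The 5 T cell markers summed to 0.133 and 0.354 CPM in Foxp3-DTR C and D and to 5.14 and 0.0615 CPM in WT A and C. Cd4 and Foxp3 had 0 counts in all libraries. In Foxp3-DTR only Cd3g had counts, 2 in C and 5 in D, too few to tell these libraries apart. The 5 macrophage and Langerhans cell markers summed to 2.85 and 3.61 CPM in Foxp3-DTR C and D and to 6.05 and 1.72 CPM in WT A and C. In Foxp3-DTR only Cd68 was higher in D, with 29 counts in C and 51 in D. Ptprc, Cd207, Lyz2 and Csf1r went the other way, with at most 7 counts in C and 0 in D. Lyz2 also had 0 counts in WT A and 6 in WT C. The 4 melanocyte markers summed to 25.3 and 34.3 CPM in Foxp3-DTR C and D and to 27.4 and 14.1 CPM in WT A and C. Dct gave most of this sum. Mlana went the other way in both groups, with 14 and 8 counts in Foxp3-DTR C and D, beside 0 and 5 counts in WT A and C. The part of these cells in the values of Sema3d, Nrp2, Robo1, Ephb1 and Plxnc1 was not tested. In the other direction 1 member, Plxna4, was lower in both, beside 2.54% of all tested genes, at 0.352 to 2.34 CPM.

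**Figure D4:**
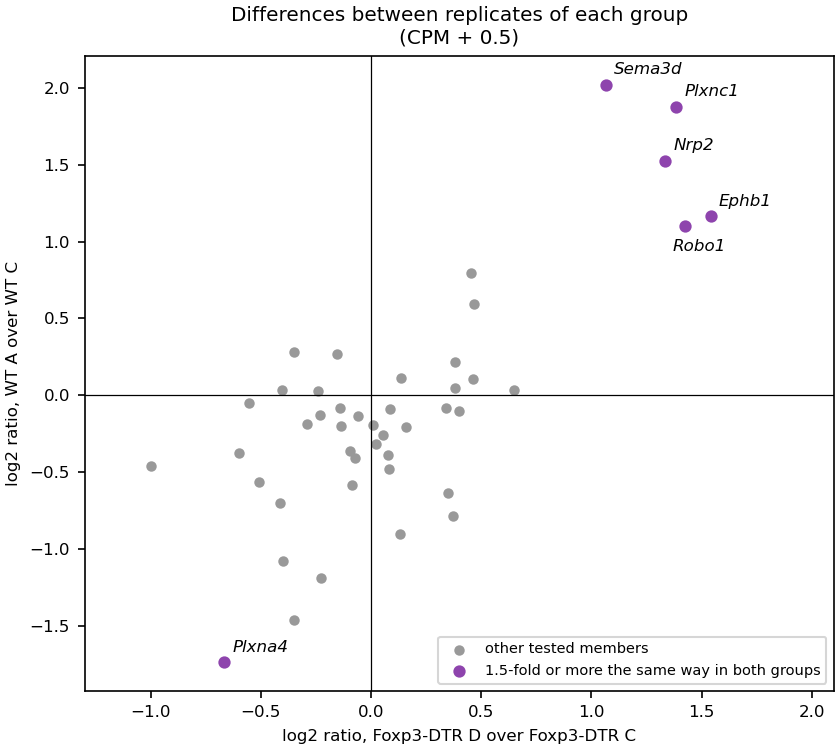
Log2 ratio between the replicates of WT (WT A over WT C, vertical axis) against that between the replicates of Foxp3-DTR (Foxp3-DTR D over Foxp3-DTR C, horizontal axis) for 45 tested members, on CPM + 0.5. The 5 members at the upper right and Plxna4 at the lower left differ at least 1.5-fold the same way in both groups.

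Other genes of these pathways were read from a list of 51 receptors, co-receptors and signalling partners, all in the table and 41 tested. None passed in edgeR's test, with 0 higher and 0 lower, beside 0.82% and 0.426% of all genes. At an unadjusted p under 0.05 there were 16, 5 higher and 11 lower, or 39.0% of the 41 beside 14.6% of all tested genes. The list was chosen with earlier results of these data known, so this share is a description without a test. DESeq2 called 2 higher and 7 lower of 42, beside 3.61% and 3.79% of all genes. Limma-voom called 0 and 0, beside 0.542% and 0.178%. Those of DESeq2 were Chl1 and Ngef higher, and Neo1, Rgma, Nrcam, Flrt1, Dpysl2, Dpysl3 and Dpysl4 lower, named here after their values were seen where the rule for named genes did not take them. The median log2 fold change was -0.04. Neo1, a receptor for netrins and repulsive guidance molecules, was nearest to the threshold. It stood at 136 and 138 CPM in Foxp3-DTR C and D, against 272 and 277 CPM in WT A and C, a 0.498-fold level. EdgeR gave an adjusted p of 0.0523. It passed without WT C (edgeR adjusted p = 0.0483), with no filter (0.0191) and in DESeq2 (8.16e-06). Nrcam, an adhesion molecule of the L1 family, stood at 28.1 and 66.6 CPM in Foxp3-DTR C and D, against 103 and 145 CPM in WT A and C, or -1.39 ± 0.43 on the log2 scale (edgeR adjusted p = 0.222). When 1 library was left out this ran from -2.13 without Foxp3-DTR D, where it passed (edgeR adjusted p = 0.00818), to -0.89 without Foxp3-DTR C. Rgma, a Neo1 ligand named after its values were seen, stood at 82.3 and 83.3 CPM in Foxp3-DTR C and D, against 162 and 124 CPM in WT A and C, and did not pass. Dcc, the classical netrin receptor, had 0 counts in every library.

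Dpysl4, of the collapsin response mediator family, had 8 counts over both Foxp3-DTR libraries and 159 over both WT libraries, or -4.21 ± 0.82 on the log2 scale (edgeR adjusted p = 0.0695). It passed with no filter (edgeR adjusted p = 0.0257) and in DESeq2 (0.000429), and was -5.11 without Foxp3-DTR C and -3.67 without Foxp3-DTR D. Among partners with higher values, the adhesion molecule Chl1, a co-receptor with neuropilin-1, stood at 198 and 182 CPM in Foxp3-DTR C and D, against 117 and 112 CPM in WT A and C, with 0.72 ± 0.17 (edgeR adjusted p = 0.0997). Ngef, which acts below EphA receptors, stood at 33.2 and 44.4 CPM in Foxp3-DTR C and D, against 12.7 and 20.6 CPM in WT A and C, with 1.22 ± 0.32 (edgeR adjusted p = 0.128).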

How the data were processed

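The authors deposited raw counts, whole reads for each gene symbol in every library. A stranded mRNA kit was used, per the labels' protocols. Software named in the submitters' processing notes is HTSeq 0.6.1, SAMtools 0.1.19.0, Bowtie2 2.1.0.0, TopHat2 2.0.12 and CASAVA 1.8.2, on build mm10. Neither annotation nor strand setting is given in the sources used here. The 5 counter rows that name no gene took 62.0% to 70.1% of each library and entered neither library sizes nor tests. Most of this was the row for alignments that were not unique. It took 53.45% and 58.27% in Foxp3-DTR C and D, and 61.34% and 51.81% in WT A and C.

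The group comparison used edgeR 4.0.16 in R 4.3.3 (TMM factors, filterByExpr, robust glmQLFit and glmQLFTest, group only). The procedure was tested on simulated data. DESeq2 1.42.0, limma 3.58.1 (voom), no filter, other size factors and leaving out each library were the alternatives. SEs come from the fold change and the F statistic. TPM used exon lengths and coordinates of GENCODE M21 (GRCm38, the assembly that mm10 names). A count of 0 allows 3 counts, for counting error only. The members and lists were chosen with earlier results of these data known. The named genes are, by rule, members past the threshold, the 4 smallest p in each direction, the 3 highest TPM per family, Efnb1, Sema3e and the 2 partner genes with the smallest p in each direction.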

Additional observations from a re-analysis of the deposited data

How the results depend on the processing

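With 2 libraries a group, the calls depended on the method. No paired analysis was possible because the groups share only the replicate letter C. Over all genes, 106 were called higher and 55 lower in edgeR's test, against 489 and 514 with DESeq2, 70 and 23 with limma-voom and 277 and 252 with no filter, and from 66 to 203 higher and from 14 to 220 lower when 1 library was left out. Guidance genes called higher and lower numbered 0 and 0, against 3 and 2 with DESeq2, 1 and 1 with no filter, and from 0 to 1 in each direction when 1 library was left out. Partner genes called higher and lower numbered 0 and 0, against 2 and 7 with DESeq2, 0 and 2 with no filter, and from 0 to 0 higher and 0 to 1 lower when 1 library was left out. The cause was not tested. Fold changes of 8 named genes that did not pass changed sign when 1 library was left out, with log2 ranges of -0.26 to 0.035 for Efnb2, -0.22 to 0.24 for Efnb3, -0.084 to 0.042 for Epha1, -0.14 to 0.05 for Ephb6, -1.56 to 0.10 for Robo1, -0.37 to 0.24 for Robo2, -0.56 to 0.22 for Sema3c and -0.74 to 0.15 for Sema3e. The other genes named by rule kept their direction in every alternative that tested them. Of members described outside that rule, some changed sign when 1 library was left out, such as Sema3d, at -1.13 to 0.96, and Plxna2, at -0.24 to 0.94. Nrp1, Nrp2 and Sema3b did not. Expressed members numbered 41 at 0.5 CPM and 37 at 2 CPM, beside 41 at 1 CPM.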
